A study of Homo sapiens with 5 samples.

Results

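Interferon response genes are the genes that cells switch on when interferons, the cytokines of antiviral defence, bind their receptors. 43 such genes were listed, and 41 of them, of 17651 genes present in both deposited value tables, had a probe annotated with their symbol alone in each table and are the members described here. DTX3L had such a probe in the table of the clone only, and STAT2 was not analysed here. RNA came from MCF12A, a human mammary epithelial cell line that does not form tumours, cultured in DMEM/F12 with horse serum, EGF, insulin, hydrocortisone and cholera toxin in every group, and was hybridised to Affymetrix Gene ST arrays. The 3-array table holds an untreated control culture and cultures exposed for 4 weeks to 2.5% ethanol or to 1% acetaldehyde, which cells make from ethanol. The 2-array table holds a clone picked in soft agar, which tests growth without anchorage, and regrown as a monolayer, with its own control, which is labelled as untreated but also tagged as selected on soft agar. The clone is labelled with 4 weeks of ethanol, the protocol ties its array design to exposures of 1 week, and the sources differ on whether ethanol came before or after the selection. The labels give the clone's ethanol as 2.5% and the series text as 2.5 mM. The clone is a single clone, and each group is 1 array, so there is no spread between cultures, no test and no p-value, and precision is limited by the array number.

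Interferons of type I and III signal through receptor-bound JAK kinases to a complex of STAT proteins with IRF9, which binds the interferon-stimulated response element in promoters. Interferon gamma acts through STAT dimers at the gamma-activated site. The induced proteins sense foreign nucleic acid, block viral entry, translation and budding, or raise antigen presentation, and epithelial cells, including those of the breast, use the same system.

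Values are intensities on a linear scale, and differences are log2 differences between 2 arrays of one table. Differences entered a count if their brighter array reached the median of its table, here called the floor, at 70.2 for the 3 arrays and 92.0 for the clone pair. The members nearest that line in ethanol and control were PSMB8 at 74.4, just inside, and CMPK2 at 69.8, just outside. In the clone and its control they were ISG20 at 93.1, just inside, and OASL at 83.7, just outside. Where the dimmer array lay under the floor, the fold is a lower bound, the brighter value divided by the floor, and is written as at least that fold. In bulk RNA, fewer cells with a transcript and less of it per cell cannot be told apart.

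The marker lists bear on what these cultures hold. Of 14 breast epithelial markers 11 were measured, and 11 of 11 reached the floor in the control, 10 in ethanol, 11 in acetaldehyde, 11 in the clone's control and 7 in the clone. Their summed intensity was 17970.2, 11221, 18550.0, 30983 and 13350.0, in that order. Of 12 fibroblast markers 3, 4, 5, 4 and 7 reached the floor, with sums of 658, 777, 765, 1056 and 2563. Of 19 leukocyte markers, 12 of 16 measured lay under the floor in each of the first 3 arrays and 12 of 17 in each of the clone pair, and PTPRC, the leukocyte gene of CD45, was under it in all 5 arrays. Their summed intensity was 1691 in the control, 3720.5 in ethanol, 2154 in acetaldehyde, 2452 in the clone's control and 3113 in the clone. In ethanol, LAPTM5 and CD68, lysosomal genes of that list, had log2 differences of 2.07 and 1.04, CSF1R -0.34 and CD14 0.00. In the clone LAPTM5 had 2.05, and the other 4 past the floor, CD14, CD68, TYROBP and NKG7, lay between -0.27 and 0.02, with a median of -0.08 over the 5. The part of these markers in the differences below was not tested.

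Many of the members were dim in these cells, at shares near those of all genes. Of 41 members 17 (41.5%) lay under the floor in the control, ethanol and acetaldehyde, against 37.2% of all genes, and 16 (39.0%) lay under it in the clone and its control, against 33.4%. In all 5 arrays 13 were under it: IFI44, IFIH1, IFIT1, IFIT2, IFIT3, MX1, MX2, OAS2, HERC5, EPSTI1, XAF1, RSAD2 and BST2. This group holds several genes that respond strongly to interferon in most cells, such as the GTPase genes MX1 and MX2 and RSAD2, which encodes viperin. MX1 had 40.7 in each of the first 3 arrays, 49.2 in the clone's control and 36.9 in the clone. RSAD2 had 30.5 in each of the first 3 arrays, 25.6 in the clone's control and 18.1 in the clone. No fold is given for these 13 genes, because both arrays of every pair are under the floor.

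Many members, like many probes in general, had one and the same value in the first 3 arrays. Within a log2 tolerance of 1e-06, 14 of 41 members had the same value in ethanol and control and 18 in acetaldehyde and control, against 43.9% and 48.2% of all 33297 probes. In all 3 arrays 13 members (31.7%) had equal values, against 38.4% of all probes. Of these members 4 were past the floor: IFIT5, ISG20, IRF7 and IRF9. In the clone and its control 1 member, IFIT1, was equal, against 1.02% of probes. The tables thus differ in how many values are tied, and how the ties arose was not tested.

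In ethanol the members did not move together. IFI44L and IFI6 were at least 2-fold higher than in the control, 2 of 24 members past the floor, where 2.63% of 11264 genes past the floor were as much higher. SAMD9 was at least 2-fold lower, 1 of 24, where 2.44% of all genes were. The same members were counted with values under the floor raised to it, where 2.32% of genes were higher and 2.11% lower. Over the 24 the median was 0.00 on the log2 scale, as it was over all genes.

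In acetaldehyde IFI44L alone reached 2-fold as deposited, 1 of 23 members past the floor against 1.03% of 11194 genes. None of the 23 was 2-fold lower, where 0.0536% of all genes were. The median was 0.02 against 0.00 over all genes. With values under the floor raised to it, 0 of 23 members were 2-fold higher, against 0.858% of genes, and 0 lower.

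The clone differed from its control in more members, and in both directions. IFI44L, SAMD9L, IFIT5, SAMD9, PARP9, IFI6, PARP14 and IFITM1 were at least 2-fold higher, 8 of 25 members past the floor (8 of 41 in all), where 14.7% of 12262 genes were. OAS1 and OAS3 were at least 2-fold lower, 2 of 25, where 5.83% of all genes were. The median was 0.29 against -0.02 over all genes. Of the 31 members outside the 10 at 2-fold, 15 were past the floor in the clone pair. Of the 8 higher members 6 passed the floor through the clone's array alone, and both lower members through the control's alone, so that they had to differ to be counted. With values under the floor raised to it, 5 were higher (IFI44L, SAMD9L, SAMD9, IFI6 and PARP14), against 12.0% of genes, and OAS1 alone was lower, 1 of 25, against 4.98%. Centring the clone pair on its median difference over all probes, -0.17, gave 9 higher and 2 lower, where IFI16 was the ninth. Under the same centring 18.4% of all genes were higher and 4.44% lower. The members' median was then 0.46.

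**Figure D1:**
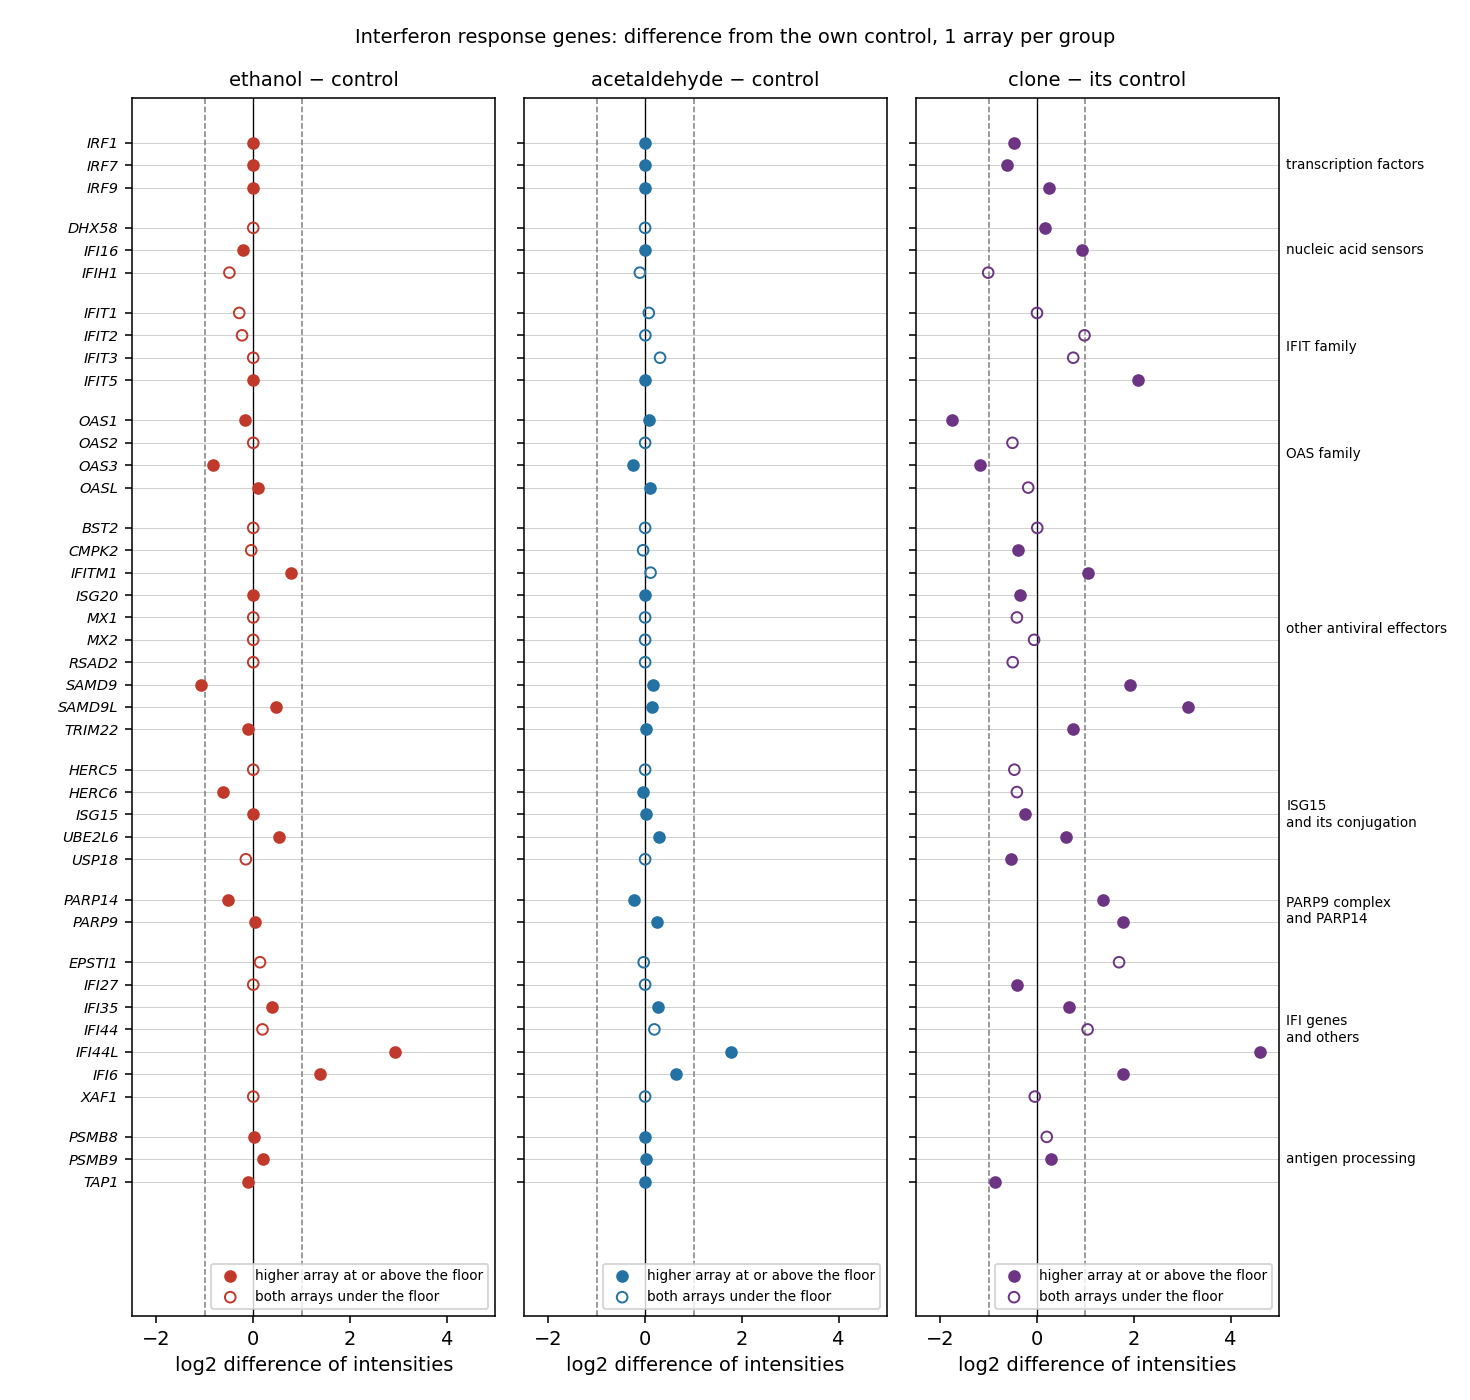
Log2 difference from the own control for each of the 41 members, ordered by role, in ethanol, acetaldehyde and the clone, with 1 array per group. Filled points have at least 1 array at or above the floor, open points have both under it, and dashed lines mark 2-fold. Points lie further from 0 in the clone, where IFI44L reaches 4.62 and OAS1 -1.77, than in acetaldehyde, where they lie between -0.24 and 1.78. The dimmer array of IFI44L and of OAS1 in the clone pair is under the floor. Genes in general differ likewise, with 14.7% at least 2-fold higher and 5.83% lower in the clone, against 1.03% and 0.0536% in acetaldehyde. Of all probes 48.2% are tied in acetaldehyde and control, and 1.02% in the clone pair.

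The 10 members at 2-fold in a comparison with a control are shown here by their promoters, since the response element through which interferon acts lies in many promoters of the family. The sequences are from RefSeq on GRCh38.p14, 5′ to 3′ in the gene's direction and upstream of the annotated start, with matches to the response element, GAAA followed by any 2 bases and again GAAA, on either strand, in capitals. 30 bases are shown for PARP9, whose start lies next to another transcript.
IFI44L (chr1:78620264-78620404, plus strand): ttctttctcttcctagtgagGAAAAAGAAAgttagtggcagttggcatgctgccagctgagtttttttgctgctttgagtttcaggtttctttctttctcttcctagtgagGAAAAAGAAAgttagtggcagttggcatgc
IFI6 (chr1:27672249-27672368, minus strand): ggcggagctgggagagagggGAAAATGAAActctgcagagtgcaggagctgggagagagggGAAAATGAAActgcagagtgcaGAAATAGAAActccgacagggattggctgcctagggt
SAMD9 (chr7:93118016-93118135, minus strand): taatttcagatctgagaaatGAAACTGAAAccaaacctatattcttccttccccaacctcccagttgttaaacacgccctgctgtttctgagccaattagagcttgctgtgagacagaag
SAMD9L (chr7:93148386-93148505, minus strand): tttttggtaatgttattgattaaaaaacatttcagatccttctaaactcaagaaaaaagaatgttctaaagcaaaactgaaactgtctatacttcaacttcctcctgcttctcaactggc
IFIT5 (chr10:89414448-89414567, plus strand): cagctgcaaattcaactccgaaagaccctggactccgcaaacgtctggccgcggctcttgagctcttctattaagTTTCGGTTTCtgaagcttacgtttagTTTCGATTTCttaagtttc
IFITM1 (chr11:313920-314039, plus strand): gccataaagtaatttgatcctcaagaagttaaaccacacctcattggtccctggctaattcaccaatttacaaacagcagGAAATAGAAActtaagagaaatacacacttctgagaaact
PARP9 (chr3:122564322-122564351, minus strand): gggcgcaaagTTTCAGTTTCgcttccctgg
PARP14 (chr3:122680719-122680838, plus strand): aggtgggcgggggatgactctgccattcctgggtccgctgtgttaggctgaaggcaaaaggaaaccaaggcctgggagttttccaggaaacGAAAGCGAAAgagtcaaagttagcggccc
OAS1 (chr12:112906842-112906961, plus strand): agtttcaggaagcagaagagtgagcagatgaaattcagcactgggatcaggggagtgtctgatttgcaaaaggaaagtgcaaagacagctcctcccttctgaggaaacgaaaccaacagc
OAS3 (chr12:112938311-112938473, plus strand): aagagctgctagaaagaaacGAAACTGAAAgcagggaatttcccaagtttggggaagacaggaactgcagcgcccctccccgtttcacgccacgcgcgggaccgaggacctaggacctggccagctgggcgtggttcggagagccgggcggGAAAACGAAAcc

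In the 300 bases from 250 before to 50 after the start, 8 of these 10 genes held a match to this strict pattern, and SAMD9L and OAS1 held none. The OAS1 sequence shown does hold gaaacgaaa, whose repeats lie closer together than the pattern allows, so it was not counted. A gene was counted if any of its annotated starts had a match. IFI6 had 3 matches upstream of its start, at 156, 115 and 93 bases before it, and IFI44L had 2, at 164 and 73 bases. Among 35 listed genes with a promoter entry 23 held a match (65.7%), against 4.38% of 27305 genes. Listed genes that were not among the 10 held it in 15 of 25 (60.0%), beside 80.0% of the 10. The gamma-activated site TTCNNNGAA, also on both strands, was in 12 of 35 (34.3%) against 9.38%, and in 5 genes overlapped a match to the response element. A match is a description of these letters and no evidence of binding.

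IFI44L, an interferon-induced gene that is often part of blood scores of interferon activity, stood furthest from its controls. It had 39.8 in the control, 305 in ethanol and 137 in acetaldehyde, and 19.9 in the clone's control and 488 in the clone. Both controls were under the floor and each exposed array was above it. The fold was at least 4.34 in ethanol, at least 1.95 in acetaldehyde and at least 5.30 in the clone. The log2 differences of the deposited values were 2.94, 1.78 and 4.62. Its neighbour and paralogue IFI44 had 23.6 in the control, 26.9 in ethanol and in acetaldehyde, 11.0 in the clone's control and 22.6 in the clone, all under the floor.

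IFI6 encodes a small membrane protein of the endoplasmic reticulum and mitochondria that limits flavivirus replication. It had 242 in the control, 633 in ethanol and 379 in acetaldehyde, and 346 in the clone's control and 1178 in the clone, so every array was well over the floor. It was 2.61-fold higher in ethanol, 1.56-fold in acetaldehyde and 3.41-fold in the clone. IFI6 was the 1 member that was 2-fold higher in both ethanol and the clone with all arrays above the floor. Of the others in this set, IFI35, an adaptor that binds the protein of NMI, had 106, 138 and 127 in control, ethanol and acetaldehyde and 82.5 and 130.0 in the clone pair, a log2 difference of 0.38 in ethanol and 0.26 in acetaldehyde and at least 1.41-fold higher in the clone. IFI27, a mitochondrial interferon-induced gene, had 58.0 in each of the first 3 arrays and 124 and 93.1 in the clone pair, or -0.41. EPSTI1 had 22.1 in the control, 24.3 in ethanol, 21.6 in acetaldehyde, 23.4 in the clone's control and 75.7 in the clone, all under the floor, and XAF1, a pro-apoptotic gene, was under it throughout.

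SAMD9 and SAMD9L are neighbouring paralogues whose proteins block translation in poxvirus infection and restrain cell growth. SAMD9 had 576 in the control, 274 in ethanol and 645 in acetaldehyde, and 94.2 in the clone's control and 357 in the clone. It was 2.10-fold lower in ethanol and 3.79-fold higher in the clone, and it was the 1 member at 2-fold in opposite directions. All 5 arrays were above the floor, but the clone's control, at 94.2, was barely over its floor of 92.0. In acetaldehyde its log2 difference was 0.16. SAMD9L had 143 in the control, 198 in ethanol and 157 in acetaldehyde, and 31.7 in the clone's control and 274 in the clone. The clone was at least 2.98-fold higher, whereas the log2 differences in ethanol and acetaldehyde were 0.47 and 0.13. The paralogues thus lay on opposite sides of 0 in ethanol and on the same side in the clone.

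**Figure D2:**
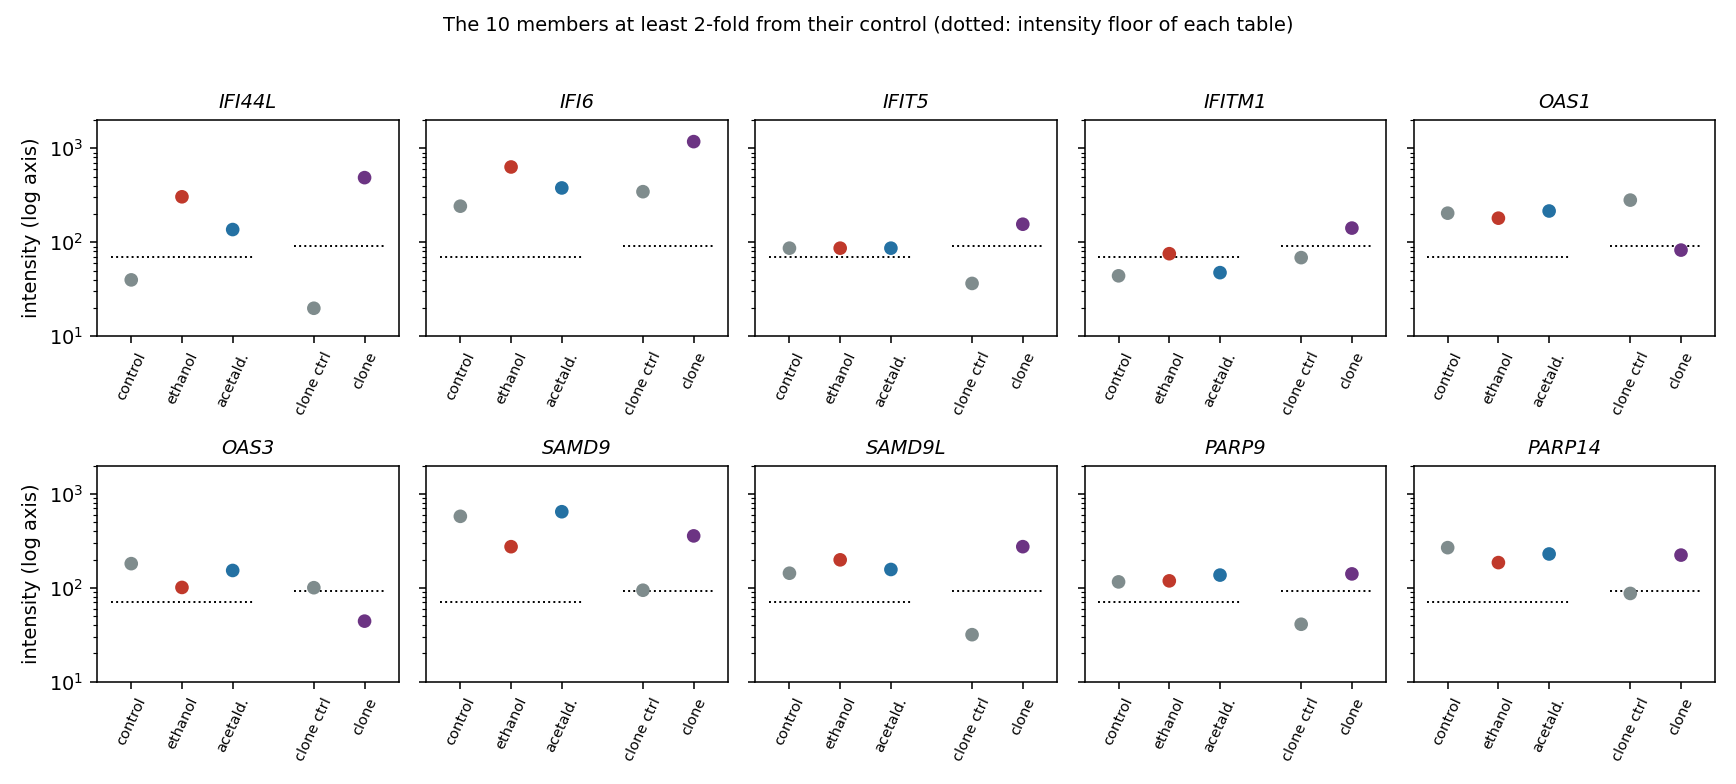
Intensity on a log axis of the 10 members at 2-fold from a control, 1 point per array, with the floor of each table dotted. Levels are to be compared within a panel and within a table only. IFI44L is under the floor in both controls, and SAMD9 is lowest in ethanol among the first 3 arrays but higher in the clone than in its control.

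The oligoadenylate synthetases make a second messenger that activates RNase L, which degrades viral and cellular RNA. OAS1 had 204 in the control, 181 in ethanol and 215 in acetaldehyde, and 281 in the clone's control and 82.6 in the clone, at least 3.06-fold lower in the clone. OAS3 had 181 in the control, 101 in ethanol and 153 in acetaldehyde, and 100.3 and 44.2 in the clone pair. Its log2 differences were -0.84 in ethanol, -0.24 in acetaldehyde and -1.18 in the clone. Since its clone control was barely over the floor, the fold there is only at least 1.09. OAS2 was under the floor throughout, and OASL, a catalytically inactive relative, had 83.8 in the control, 89.2 in ethanol and acetaldehyde, and 83.7 and 73.8 in the clone pair. None of the family past the floor was 2-fold higher, 0 of 3 in ethanol and in acetaldehyde and 0 of 2 in the clone. Of all genes 2.63%, 1.03% and 14.7% were, in that order, and counts this small cannot be told from these shares.

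The IFIT proteins bind viral RNA and block its translation. IFIT5 had 86.6 in each of the first 3 arrays, and 36.5 in the clone's control and 156 in the clone, at least 1.69-fold higher with a log2 difference of 2.09. IFIT1, IFIT2 and IFIT3 were under the floor in every array. IFIT2 had 46.5, 39.6 and 46.7 in control, ethanol and acetaldehyde, and 18.8 and 37.1 in the clone pair. IFIT3 had 45.4, 45.4 and 56.2 in the first 3 arrays, and 25.9 and 43.4 in the clone pair, where IFIT1 had 60.3 in both. Of the 4 family members, IFIT5 is thus the one with a measured level in these cells.

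PARP9 forms a ubiquitin ligase with DTX3L, and the related PARP14 is a mono-ADP-ribosyltransferase. PARP9 had 116 in the control, 119 in ethanol and 137 in acetaldehyde, and 40.9 in the clone's control and 141 in the clone, at least 1.53-fold higher. PARP14 had 268 in the control, 185 in ethanol and 229 in acetaldehyde, and 87.1 and 223 in the clone pair, at least 2.42-fold higher. DTX3L, in the clone pair alone, had 69.3 in the clone's control and 349 in the clone, at least 3.80-fold higher. All 3 passed the floor through the clone's array alone, so they had to be higher there to be counted. Of all genes 14.7% were at least 2-fold higher in the clone. In ethanol PARP9 and PARP14 had log2 differences of 0.04 and -0.53. PARP9 and DTX3L are transcribed away from each other from annotated starts 38 bases apart, so the match printed for PARP9 serves both windows.

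Among the remaining antiviral effectors, IFITM1, a membrane protein that hinders viral entry, had 44.0 in the control, 75.6 in ethanol and 47.5 in acetaldehyde, and 68.7 and 142 in the clone pair. It was at least 1.08-fold higher in ethanol and at least 1.54-fold higher in the clone, whose log2 difference was 1.04. IFITM genes are close in sequence, so this probe may also read its relatives. TRIM22, a ubiquitin ligase gene, had 385, 358 and 391 in control, ethanol and acetaldehyde and 181 and 305 in the clone pair, or -0.11, 0.02 and 0.75. ISG20, an exonuclease gene, had 92.5 in each of the first 3 arrays and 93.1 and 73.3 in the clone pair. CMPK2, a nucleotide kinase gene next to RSAD2, had 124 in the clone's control and 94.5 in the clone, a log2 difference of -0.39.

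Of the transcription factors 3 were past the floor in each comparison, and 0 of 3 reached 2-fold. The ISG15 system, which tags proteins with a ubiquitin-like modifier, also had 0 of 3 at 2-fold each time. Of all genes 2.63% were higher and 2.44% lower in ethanol, 1.03% and 0.0536% in acetaldehyde, and 14.7% and 5.83% in the clone. Counts of 0 of 3 cannot be told from these shares. IRF7, IRF1 and USP18 were dimmer in the clone than in its control. IRF9 had 119 in each of the first 3 arrays and 103 and 124 in the clone pair. IRF7 had 87.1 in each of the first 3 arrays and 414 and 268 in the clone pair, and IRF1 had 143 in those same 3 and 239 and 171 in the pair. The clone's log2 differences were thus 0.26 for IRF9, -0.63 for IRF7 and -0.48 for IRF1. ISG15 itself had 78.9 in the control and in ethanol, 79.8 in acetaldehyde, 159 in the clone's control and 134 in the clone. UBE2L6, the conjugating enzyme of ISG15, had 129, 186 and 158 in control, ethanol and acetaldehyde and 284 and 430.3 in the clone pair, or 0.53, 0.30 and 0.60. USP18, which removes ISG15 and damps receptor signalling, had 133 in the clone's control and 92.5 in the clone, or -0.53. HERC6, a ligase relative, had 82.4 in the control, 53.3 in ethanol, at least 1.17-fold lower, and 80.0 in acetaldehyde, and 66.1 and 49.6 in the clone pair, both under the floor.

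Of the sensors past the floor, 0 of 1 reached 2-fold in ethanol and in acetaldehyde and 0 of 2 in the clone. Among the antigen processing genes it was 0 of 3 in ethanol and in acetaldehyde and 0 of 2 in the clone. These counts too cannot be told from the shares of all genes. IFI16, a DNA sensor, had 1563 in the control and in acetaldehyde, 1347 in ethanol, 275 in the clone's control and 524 in the clone, a log2 difference of 0.93 in the clone. IFIH1, which encodes the RNA sensor MDA5, had 41.1, 29.2 and 38.2 in control, ethanol and acetaldehyde and 69.9 and 34.7 in the clone pair, all under the floor. DHX58, which encodes its relative LGP2, had 98.8 in the clone's control and 111 in the clone. TAP1, a peptide transporter subunit, had 296 in the control and in acetaldehyde, 275 in ethanol, 609 in the clone's control and 334 in the clone, or -0.87 in the clone. The immunoproteasome gene PSMB9 had log2 differences of 0.20, 0.03 and 0.29 in ethanol, acetaldehyde and the clone, and PSMB8 0.01, 0.00 and, under the floor in both arrays, 0.20. These 3 genes each had 3 probes with identical values.

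Acetaldehyde and ethanol can also be set against each other, at percentages that differ in the labels. SAMD9 was 2.36-fold higher in acetaldehyde than in ethanol, 1 of 24 members past the floor where 1.85% of 11221 genes were as much higher. IFI44L was 2.23-fold lower, 1 of 24 where 0.526% of genes were. With values under the floor raised to it the same 2 members were counted, against 1.61% and 0.437% of genes. Of the members with both arrays above the floor, the next by size were IFI6, with a log2 difference of -0.74, and OAS3, with 0.60. IFITM1 was under the floor in acetaldehyde and at least 1.08-fold lower there. These comparisons share arrays and are not independent of each other.

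**Figure D3:**
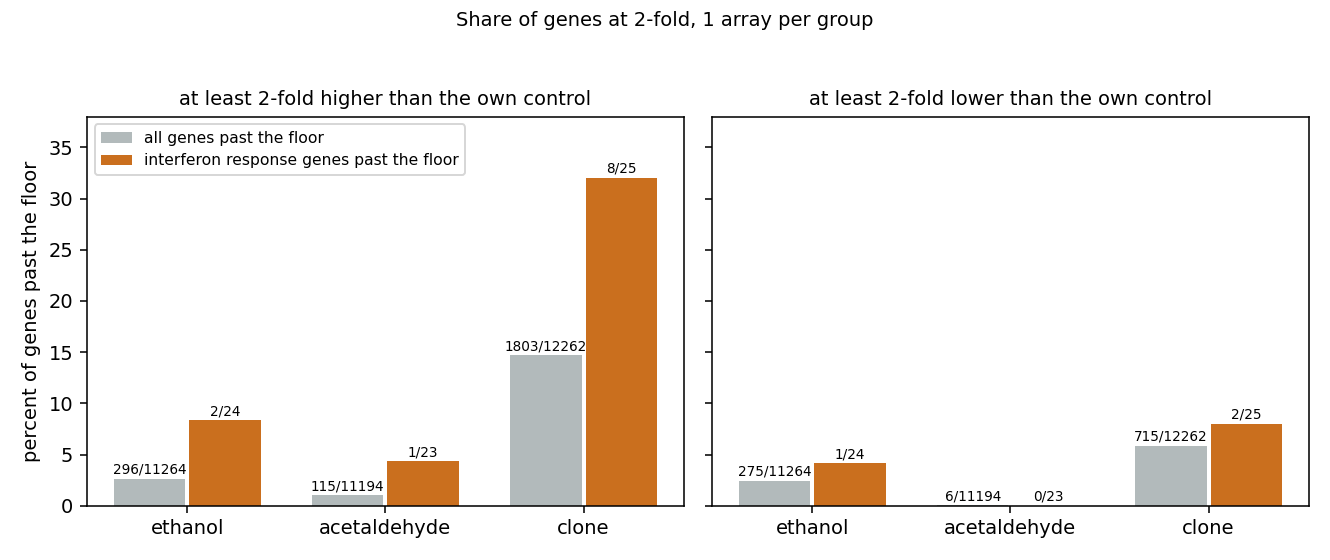
Percent of genes past the floor that were at least 2-fold higher (left) or lower (right) than the own control, for all genes (grey) and for the members (orange), with counts over the bars and 1 array per group. The members' bars rest on 24, 23 and 25 genes, and the clone's 8 of 25 stands beside 14.7% of all genes.

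Most of the measured interferon genes were dim. Of 21 listed ligand genes 14 were measured in the first 3 arrays and 16 in the clone pair. Under the floor in every array lay 13 in each table, among them IFNB1, the type I gene that epithelial cells make first, and IFNG. IFNL3, a type III interferon gene, had 183 in each of the first 3 arrays, and 774 in the clone's control and 623 in the clone, a log2 difference of -0.31. In the clone pair IFNL2 had -0.17 and IFNL1 was at least 1.26-fold lower, and IFNL2 and IFNL3 are near-identical copies that 1 probe may not separate. No ligand past the floor was 2-fold from its control, 0 of 1 in ethanol and in acetaldehyde and 0 of 3 in the clone. Of all genes 2.63% were higher and 2.44% lower in ethanol, 1.03% and 0.0536% in acetaldehyde, and 14.7% and 5.83% in the clone. Counts this small cannot be told from these shares.

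Of the receptor and kinase genes 9 were measured. None of 7 past the floor was at 2-fold in ethanol or in acetaldehyde. Of all genes 2.63% were higher and 2.44% lower in ethanol, and 1.03% and 0.0536% in acetaldehyde. A count of 0 of 7 cannot be told from these shares. In the clone 1 of 8 (12.5%) was higher, near the 14.7% of all genes. IFNAR1, a chain of the type I receptor, had 511 in the control, 555 in ethanol, 506 in acetaldehyde, 109 in the clone's control and 320 in the clone, 2.92-fold higher in the clone. Its partner IFNAR2 was under the floor in the clone pair, at 88.3 and 83.4. JAK1, the kinase of both interferon classes, had 425 in each of the first 3 arrays and 942 and 752 in the clone pair.

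The induction pathway, whose sensors and adaptors lead to interferon production, had 0 of 14 genes at 2-fold in ethanol and in acetaldehyde. Of all genes 2.63% were higher and 2.44% lower in ethanol, and 1.03% and 0.0536% in acetaldehyde, so that 0 of 14 cannot be told from these shares. In the clone 2 of 13 (15.4%) were higher and 1 (7.69%) lower, near the 14.7% and 5.83% of all genes. RIGI, an RNA sensor, had 33.6 and 128 in the clone pair, at least 1.39-fold higher. STING1, the adaptor of the DNA sensor CGAS, had 224 and 626, 2.79-fold higher, and CGAS had 101 and 62.2, at least 1.10-fold lower. IRF5, a transcription factor gene, had 234 and 82.1, at least 2.54-fold lower. Of the negative regulators 0 of 8 in ethanol, 0 of 7 in acetaldehyde and 0 of 9 in the clone reached 2-fold. These lists are too short to tell 0 from the shares of all genes, which were 14.7% higher and 5.83% lower in the clone. The furthest was SOCS1, an inhibitor of JAK kinases, at 344 in the clone's control and 178 in the clone, or -0.95.

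A longer list of other interferon-induced genes, chosen with the members but not among them, gave a like mixture. In ethanol, of 26 past the floor, 2 were higher, 2 were lower and the median was 0.00, beside 2.63% and 2.44% of all genes. In acetaldehyde 1 of 26 was higher, beside 1.03%, and 0 lower. In the clone, of 29 past the floor, 9 were higher, 2 were lower and the median was 0.49, beside 14.7% and 5.83% of all genes. LGALS3BP, a secreted galectin-binding glycoprotein gene, had 184 in the control, 702 in ethanol and 394 in acetaldehyde, and 194 in the clone's control and 1479.6 in the clone. It was 3.81, 2.14 and 7.64-fold higher, in that order, with every array over the floor. TNFSF10, which encodes the death ligand TRAIL, had 97.7 in the control, 29.2 in ethanol and 99.4 in acetaldehyde, and 488 and 54.2 in the clone pair. It was at least 1.39-fold lower in ethanol and at least 5.30-fold lower in the clone. ZNFX1, an RNA-binding helicase gene, had 440.4 in each of the first 3 arrays and 151 and 754 in the clone pair, 4.98-fold higher. SP100, a nuclear body gene, was at least 3.05-fold higher in the clone. IFITM3, an entry-restricting relative of IFITM1, was 2.07-fold higher in ethanol and SLFN5, a Schlafen family gene, 2.67-fold lower.

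The MHC class I genes, which present peptides to T cells and answer to interferon, were mostly brighter in ethanol, with 10 of 12 past the floor over 0.1 on the log2 scale and 0 under -0.1, where 2330 of 11264 genes were over 0.1 and 2435 under -0.1. Of the 12, 1 was at least 2-fold higher, where 2.63% of all genes were, and 0 lower, and their median was 0.59 on the log2 scale against 0.00 over all genes. HLA-B had 1250.2 in the control, 2649.9 in ethanol and 2068 in acetaldehyde, 2.12-fold higher in ethanol. HLA-C had a log2 difference of 0.94, HLA-G 0.98 and HLA-F 0.91, and B2M, the shared light chain, 0.71. The HLA genes are close in sequence and their probes may read each other. In acetaldehyde the median was 0.20, with 0.73 for HLA-B. In the clone pair the HLA genes are not used here, and of 8 class I pathway genes past the floor 1 was higher, beside 14.7% of all genes, the peptide-trimming gene ERAP1, at least 1.41-fold, with a median of 0.42.

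**Figure D4:**
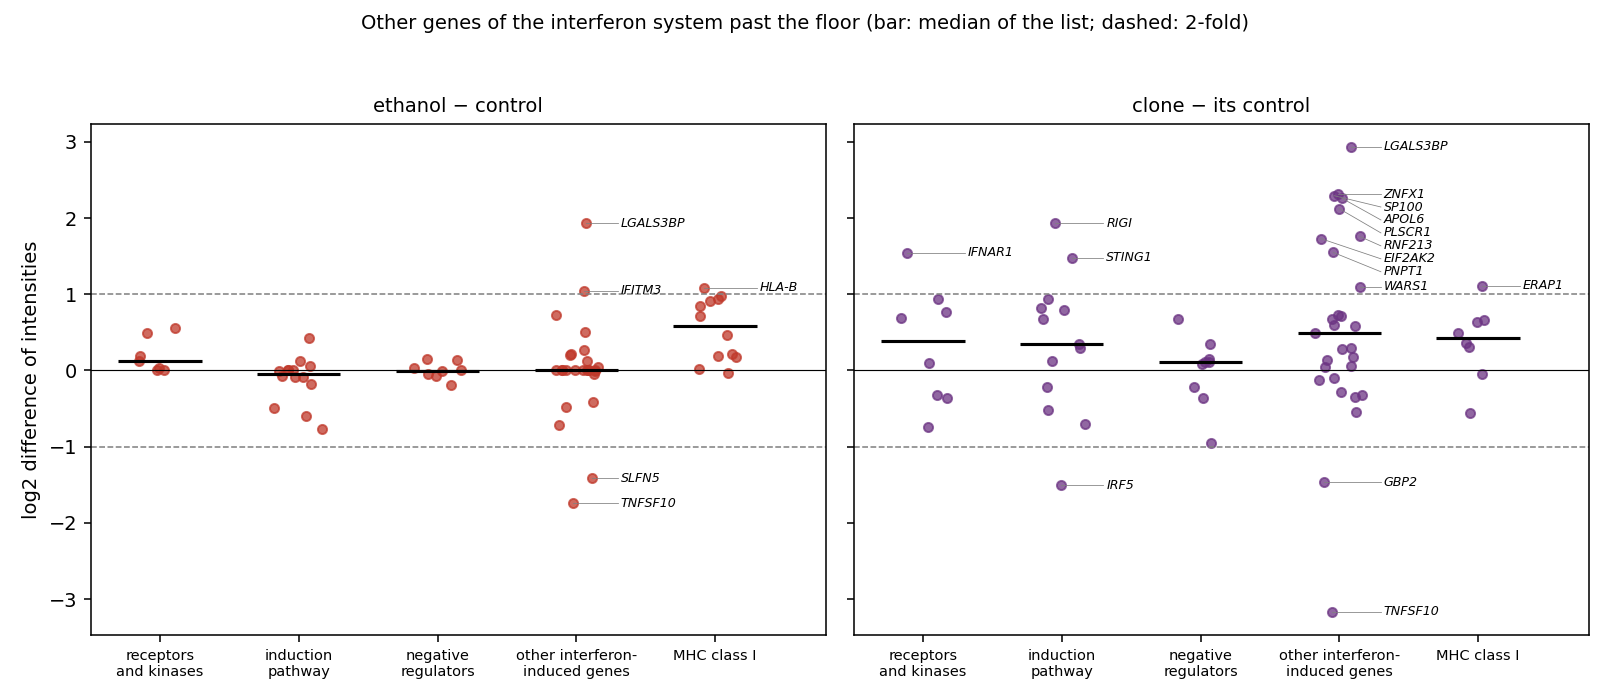
Log2 difference from the own control of the genes past the floor in 5 further lists of the interferon system, in ethanol (left) and in the clone (right), 1 point per gene, with a bar at each list's median, dashed lines at 2-fold and names for genes past them. In ethanol the MHC class I median is 0.59 and the medians of the other lists lie between -0.04 and 0.12. In the clone the list of other induced genes spans from -3.17 to 2.93.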

How the data were processed

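The authors deposited intensity values on a linear scale in 2 tables of different Affymetrix Gene ST designs, made with RMA, as the submitters' processing notes record; RMA's version, genome build and annotation are not given in the sources used here. The tables were treated as normalised separately and differences were taken within a table only. Log2 of each intensity was taken with Python 3.11.15, numpy 2.4.6 and pandas 2.3.3. Probes were named from the platform annotation; 19181 probes of the 3-array table and 19460 of the 2-array table had 1 symbol, 2055 and 1754 several and 12061 and 12083 none listed. A gene was taken from its probe with the highest mean log2 value. All 43 listed symbols matched a RefSeq gene name.

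The members and the lists were chosen with earlier results of these data known. Values in every array are given for the 10 members at 2-fold in a comparison with a control and for the next 10 by size. The other 21 are given by count or value. From the other lists some genes were named, not always those furthest from control. CGAS, for instance, was named at -0.70 in the clone, whereas MYD88 had 0.94. With 1 array per group no test was run. Counting was tested on simulated data. Promoters were read from RefSeq, GRCh38.p14. Alternatives covered the floor, the fold, centring, quantile normalisation and the probe of a gene.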

Additional observations from a re-analysis of the deposited data

Results flagged for a closer look

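SAMD9 went in opposite directions in the 2 comparisons that involve ethanol, each against its own control. Its log2 difference was -1.07 in the 4-week ethanol culture, at 274 against 576, and 1.92 in the soft agar clone, at 357 against 94.2. The last value was barely over the floor of 92.0. Each rests on 1 array per group in a different table, and the difference between them was not tested.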

How the results depend on the processing

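Of 80 recomputed counts and medians of the members, 64 kept their value (counts within 1.5 times, medians within 0.1) and 16 moved; none of the named genes at 2-fold changed sign under any alternative. With a floor at the 75th percentile of the table, the members' median was -0.11 in ethanol and 0.12 for acetaldehyde against ethanol. At that floor 0 of 6 were higher in acetaldehyde, beside 1.31% of all genes. In the clone 4 were higher and 1 lower of 10, beside 18.6% and 8.51% of all genes, with a median of 0.84. With values raised to the floor, 0 were higher in acetaldehyde, beside 0.858% of all genes. In the clone 5 were then higher and 1 lower, beside 12.0% and 4.98%. With no floor the clone's median was 0.0055 over all 41 members. At 1.5-fold 3 of 24 were lower in ethanol, beside 5.11% of all genes, and 2 of 23 higher in acetaldehyde, beside 2.16%. For acetaldehyde against ethanol 3 of 24 were higher and 3 lower, beside 3.78% and 2.22%. In the clone 4 of 25 were lower, beside 15.2%. Centring on the median difference over all probes, -0.17 in the clone, gave a median of 0.46 there. Quantile normalisation again and the mean of a gene's probes moved none of these values. No paired analysis was possible because each group has 1 array.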

Other observations

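The MHC class II genes, which present peptides to helper T cells and follow interferon gamma through CIITA, were mostly under the floor. Of 9 measured in the first 3 arrays 1 was past it, and of 7 in the clone pair 2 were. HLA-DMA, a class II peptide exchange gene, had 66.2 in the control, 103 in ethanol and 93.6 in acetaldehyde, and 145 in the clone's control and 303 in the clone, 2.09-fold higher in the clone. Quantile normalisation of the clone pair again brought this under 2-fold. CIITA had 112 in the clone's control and 95.6 in the clone, a log2 difference of -0.23, and was under the floor in the other arrays.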
